A study of Homo sapiens with 5 samples.

Results

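The genes described here are 41 components of homologous recombination, the Fanconi anemia pathway, mismatch repair, the DNA damage checkpoint and the joining of broken ends. They were taken by gene symbol from a table of 28442 gene rows, and all 41 symbols were present. RNA came from the established human cell line TOV21G, derived from an ovarian clear cell carcinoma, and the title of the study ties ARID1A-mutated ovarian cancers to HDAC6, a mainly cytoplasmic deacetylase. The 3 treated libraries were shHDAC6 (a short hairpin RNA against HDAC6), ACY1215 (also called ricolinostat) and CAY10603, which are small-molecule HDAC6 inhibitors. The 2 controls were shControl, a control hairpin, and the drug vehicle. Each treatment had 1 library. Cells infected with hairpin virus were selected in puromycin, a step the labels do not give for the drug-treated cells. The labels name more than 1 HDAC6 hairpin without saying which was sequenced, and the sources used here give no doses, times or number of cultures.

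Homologous recombination copies an intact sister chromatid to mend a double-strand break. The ends are trimmed to single strands, BRCA1, PALB2 and BRCA2 prepare them for strand exchange, and helicases and translocases resolve the joined molecules. The Fanconi pathway unhooks interstrand crosslinks: a core complex attaches ubiquitin to the FANCD2 and FANCI clamp, which then hands over to recombination. ATM and ATR signal the damage to CHEK2 and CHEK1, while the Ku proteins, DNA-dependent protein kinase and ligase IV rejoin ends without a template. Many recombination genes are transcribed mostly in S and G2 phase, when a sister chromatid is present, whereas end joining factors are made throughout the cell cycle.

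Total counts per library were between 43498805 (vehicle) and 57442767 (shControl). Levels are given as CPM, counts scaled to the effective size of each library, and log2 folds are of such CPM. HDAC6 itself stood at 29.2 CPM in shHDAC6, 33.1 in ACY1215 and 48.2 in CAY10603, against 47.9 in shControl and 51.0 in vehicle. Its fold was -0.72 for shHDAC6 over shControl, -0.62 for ACY1215 over vehicle and -0.08 for CAY10603 over vehicle. Of 14 markers of clear cell carcinoma and epithelium, 8 averaged at least 5 CPM, among them PAX8 and EPCAM, while NAPSA, KRT7, CDH1, MUC1, KRT19 and CDH6 did not. Leukocyte markers summed to between 2.999 and 6.45 CPM, with CD3D and TYROBP among the 3 of 12 at 0 in every library, and endothelial markers to between 0.747 and 1.52 CPM. Fibroblast markers summed to between 26.4 and 42.0 CPM, and of those 9 genes only COL1A2 averaged at least 5 CPM. RNA was pooled over all cells of a library, so fewer cells expressing a gene and less of its RNA per cell cannot be told apart.

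Transcript levels are compared between genes in the authors' FPKM, which is scaled to transcript length. XRCC6 and XRCC5, the subunits of the Ku heterodimer that caps broken ends, were the most abundant members, with medians over the 5 libraries of 345 and 222 FPKM. UBE2T, the enzyme that passes ubiquitin to FANCD2 and FANCI, followed at 77.6 FPKM, then MSH6 at 56.98 and PARP1 at 53.9 FPKM. At the low end stood FANCB at 3.04 FPKM and RAD54L at 2.91 FPKM. ATR varied least, with its highest library 1.15 times its lowest, and EXO1 varied most among the members other than FANCF, at 3.39 times. Of the 40 pairs of neighbours in this order, 37 had overlapping ranges over the 5 libraries, so genes of similar level were not told apart by it.

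**Figure D1:**
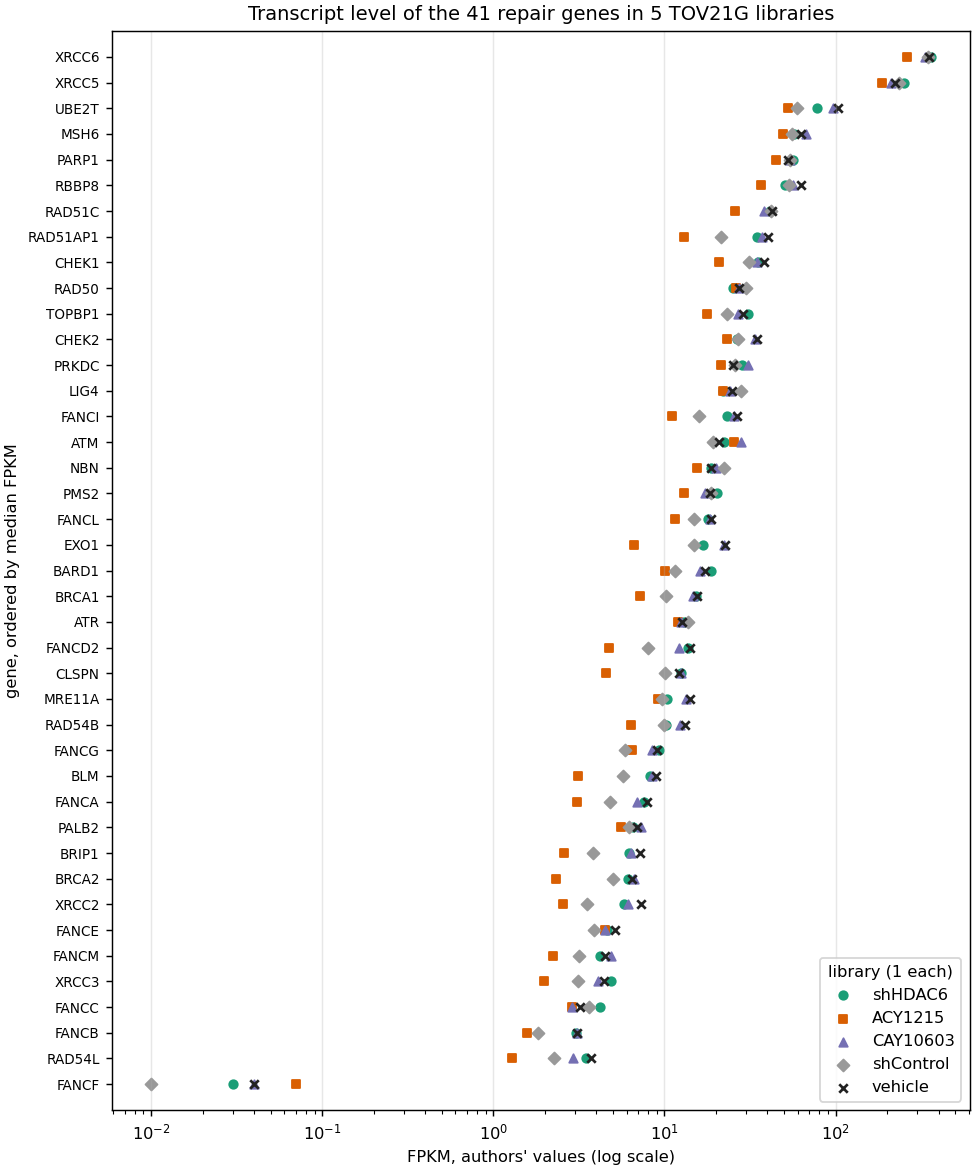
Authors' FPKM (log axis) of each of the 41 genes in the 5 libraries, 1 point per library, with genes ordered by median. XRCC6 and XRCC5 lie at the top, FANCF lies far below the rest, and the ACY1215 square is the leftmost point for most genes.

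FANCF, an adaptor of the Fanconi core complex, was close to absent, with 5 counts in shHDAC6, 12 in ACY1215 and 5 in CAY10603, against 2 in shControl and 5 in vehicle. It was the only member that did not average 5 CPM, and no fold is given for it. The other 7 core proteins FANCA, FANCB, FANCC, FANCE, FANCG, FANCL and FANCM all passed that floor. PMS2, a mismatch repair endonuclease subunit, was measured at 51.0 CPM in shHDAC6, 35.0 in ACY1215 and 44.0 in CAY10603, against 47.7 in shControl and 45.3 in vehicle. PMS2, CHEK2 and FANCD2 have pseudogene copies in the genome, so the split of reads between near-identical copies makes their values less certain.

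The labels group the 3 interventions as repressed HDAC6, and this was tested against both controls with edgeR's quasi-likelihood test, with shRNA or drug as a covariate. Of 13449 genes tested, 0 passed an adjusted p of 0.05, a share of 0%. Before adjustment, 100 genes (0.744%) had a p under 0.05, and DESeq2 and limma-voom also called 0. None of the 40 members tested was called, and 0 reached an unadjusted p under 0.05. Pooled log2 folds lay between -0.25 for RBBP8 (SE 0.20) and 0.16 for FANCG (SE 0.22), with a median of -0.073, against 0.00 for all genes tested. That median was 0.12 without ACY1215, 0.22 without vehicle and -0.34 without either shHDAC6 or shControl, and without ACY1215 or vehicle 4 and 3 genes were called, none of them a member. Leaving out 1 library at a time gave folds between -0.39 and -0.088 for RBBP8 and between -0.13 and 0.55 for FANCG. RAD51C, which acts in strand exchange, had the smallest unadjusted p, 0.236, with a fold of -0.24 (SE 0.18) and an edgeR adjusted p of 1.00. Its fold was -0.065 without vehicle, -0.12 without ACY1215 and -0.37 without either shHDAC6 or shControl. These p-values reflect the spread among 5 libraries of different treatments. The interventions differed from each other in the member folds, as the single pairs below show, and those pairs have 1 library a side and therefore no test. Their intervals, at 95%, are exact binomial intervals of counting error only and say nothing of the spread between cultures.

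Most recombination and Fanconi transcripts had their lowest level in ACY1215. Against vehicle, 38 of the 40 members above 5 CPM were lower, with a median log2 fold of -0.64, where all 10738 genes above that floor had a median of 0.00 and 50% were lower. A fold of at least 2 downward was seen in 13 members, or 32.5%, against 3.04% of all genes, and 0 members were 2-fold higher, against 1.67%. The counting interval lay wholly below 0 for 36 members (37.8% of all genes), above 0 for RAD50 alone (38%), and spanned 0 for 3 (24.3%). By role, 6 of 8 genes of strand exchange and joint processing, 3 of 5 genes of the BRCA complex and both Fanconi substrates were at least 2-fold lower, against 1 of 8 core and conjugation genes, 1 of 6 checkpoint genes and 0 of the 11 genes of end sensing, mismatch repair and end joining. EXO1, which also acts in end trimming and mismatch repair, was counted with strand exchange here. Against shControl in place of vehicle, ACY1215 was again lower for 38 members, with 52.8% of all genes lower. That pair also differs in experiment type, drug against hairpin. The median was then -0.40, and EXO1 and CLSPN alone remained 2-fold lower, that is 2 of 40 members against 1.18% of all genes, while 0 members were 2-fold higher, against 1.83%. The same 2 genes were 2-fold under both controls, against 0.643% of all genes. Genes of G2 and M phase had a median of -1.36 in ACY1215 over vehicle, with 29 of 30 at least 2-fold lower, and DNA replication genes a median of -0.998, with 15 of 33. The part of cell cycle distribution in the member folds was not tested.

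EXO1, a nuclease that trims break ends and removes the mismatched strand, had the lowest fold of all members and ranked 49th from the bottom among the 10738 genes. It stood at 53.1 CPM in shHDAC6, 22.4 in ACY1215 and 71.8 in CAY10603, against 47.0 in shControl and 69.3 in vehicle. ACY1215 was thus the lowest library by a wide margin, at -1.63 relative to vehicle (interval -1.73 to -1.53), or 3.10 times lower. RAD51AP1, which promotes invasion of the sister duplex, stood at 69.9 CPM in shHDAC6, 27.6 in ACY1215 and 76.3 in CAY10603, against 43.5 in shControl and 80.2 in vehicle. Its ACY1215 fold over vehicle was -1.54 (-1.63 to -1.45), and shControl was the second lowest library. XRCC2, which acts in strand exchange, had 16.6 CPM in shHDAC6, 7.64 in ACY1215 and 17.7 in CAY10603, against 10.1 in shControl and 20.4 in vehicle, for an ACY1215 fold of -1.41 (-1.59 to -1.25). XRCC3, of the same protein family, had 11.6 CPM in shHDAC6, 4.94 in ACY1215 and 9.84 in CAY10603, against 7.47 in shControl and 10.4 in vehicle. Its ACY1215 fold was -1.07 (-1.30 to -0.86). In both genes shHDAC6, CAY10603 and vehicle lay above shControl, and shControl above ACY1215. RAD54L, a translocase on duplex DNA, had 8.83 CPM in shHDAC6, 3.70 in ACY1215 and 7.85 in CAY10603, against 5.70 in shControl and 9.61 in vehicle, a fold of -1.37 (-1.63 to -1.13). BLM, the helicase that dissolves joined molecules, had 35.2 CPM in shHDAC6, 14.2 in ACY1215 and 36.8 in CAY10603, against 24.7 in shControl and 37.7 in vehicle, which gave -1.41 (-1.53 to -1.28). For each of these 6 genes ACY1215 was the lowest library and shControl the next lowest. RAD54B, the paralog of RAD54L, was just outside the 2-fold mark at -0.90, and RAD51C lay at -0.60.

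Promoters of the members at the extremes are shown because the ends of the ACY1215 range are where a shared sequence could be looked for. The 4 lowest and the 2 highest members with an entry in the RefSeq promoter table (GRCh38.p14) are given 5′ to 3′ on the gene's strand, from 250 bases before the RefSeq start to 30 after it. CLSPN was added after its values were seen, although BRCA2, BLM, RAD54L and BRIP1 had lower folds. The entries of those genes held no E2F string and are not shown. Capitals mark matches, on either strand, to the E2F strings TTTCCCGC, TTTCGCGC, TTTGCCGC and TTTGGCGC and to the CCAAT box.
EXO1 (chr1:241847954-241848233, plus strand): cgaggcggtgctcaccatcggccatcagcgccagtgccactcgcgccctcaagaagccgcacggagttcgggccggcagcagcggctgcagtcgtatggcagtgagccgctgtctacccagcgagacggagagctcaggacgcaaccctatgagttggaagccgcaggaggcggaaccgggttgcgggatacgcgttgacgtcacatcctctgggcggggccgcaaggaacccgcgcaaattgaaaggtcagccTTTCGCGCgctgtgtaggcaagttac
RAD51AP1 (chr12:4538640-4538919, plus strand): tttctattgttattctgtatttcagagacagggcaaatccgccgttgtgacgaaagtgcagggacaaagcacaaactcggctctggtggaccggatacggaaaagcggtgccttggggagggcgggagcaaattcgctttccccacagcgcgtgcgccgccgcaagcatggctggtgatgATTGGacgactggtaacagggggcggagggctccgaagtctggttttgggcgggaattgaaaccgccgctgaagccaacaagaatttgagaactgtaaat
FANCD2 (chr3:10026187-10026466, plus strand): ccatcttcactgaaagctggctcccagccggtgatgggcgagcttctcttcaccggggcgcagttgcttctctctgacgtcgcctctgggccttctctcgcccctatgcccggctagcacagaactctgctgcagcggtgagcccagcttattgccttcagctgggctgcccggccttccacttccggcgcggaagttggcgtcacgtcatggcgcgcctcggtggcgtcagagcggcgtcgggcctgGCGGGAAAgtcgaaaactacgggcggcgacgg
XRCC2 (chr7:152676112-152676391, minus strand): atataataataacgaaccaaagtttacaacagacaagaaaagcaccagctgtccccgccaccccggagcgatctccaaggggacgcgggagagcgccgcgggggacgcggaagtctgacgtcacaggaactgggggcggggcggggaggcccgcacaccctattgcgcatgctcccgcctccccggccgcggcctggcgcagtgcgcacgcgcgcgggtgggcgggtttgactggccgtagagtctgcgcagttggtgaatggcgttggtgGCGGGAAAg
CLSPN (chr1:35769949-35770228, minus strand): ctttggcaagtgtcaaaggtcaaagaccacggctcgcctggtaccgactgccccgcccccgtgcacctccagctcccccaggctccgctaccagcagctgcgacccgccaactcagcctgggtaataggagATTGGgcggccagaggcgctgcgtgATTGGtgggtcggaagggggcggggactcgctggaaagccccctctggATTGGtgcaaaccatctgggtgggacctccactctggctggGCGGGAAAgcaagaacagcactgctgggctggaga
RAD50 (chr5:132556727-132557006, plus strand): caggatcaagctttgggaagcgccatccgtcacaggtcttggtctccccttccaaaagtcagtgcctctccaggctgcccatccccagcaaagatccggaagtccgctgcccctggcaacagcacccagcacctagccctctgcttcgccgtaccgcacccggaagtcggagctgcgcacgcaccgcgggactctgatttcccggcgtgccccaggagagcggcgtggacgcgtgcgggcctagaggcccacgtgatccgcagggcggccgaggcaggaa
ATR (chr3:142578704-142578983, minus strand): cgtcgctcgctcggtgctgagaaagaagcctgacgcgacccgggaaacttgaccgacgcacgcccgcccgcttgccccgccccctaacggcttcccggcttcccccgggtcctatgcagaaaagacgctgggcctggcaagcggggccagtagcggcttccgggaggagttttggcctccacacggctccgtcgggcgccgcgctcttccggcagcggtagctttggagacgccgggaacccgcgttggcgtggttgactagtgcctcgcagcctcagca
E2F strings were found in the windows of EXO1, FANCD2, XRCC2 and CLSPN, a CCAAT box in those of RAD51AP1 and CLSPN, and neither in those of RAD50 and ATR. These windows are a selection. The E2F matches shown reached past the start or lay after it, so none lay wholly in the 250 bases before it. In those 250 bases, E2F strings were found for 1 of 12 members at least 2-fold lower in ACY1215 and for 2 of 23 others. Over whole 300-base entries, they were found for 5 of these 12 and for 5 of these 23. EXO1 has 2 entries, of which the first listed is shown, and the other held none of these strings.

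FANCD2 and FANCI, the clamp that the Fanconi core marks with ubiquitin, were both at least 2-fold lower in ACY1215 than in vehicle. FANCD2 had 66.1 CPM in shHDAC6, 24.3 in ACY1215 and 59.8 in CAY10603, against 39.1 in shControl and 66.6 in vehicle, with ACY1215 the lowest library and a fold of -1.45 (-1.55 to -1.36). FANCI had 89.9 CPM in shHDAC6, 44.3 in ACY1215 and 102 in CAY10603, against 65.2 in shControl and 104 in vehicle, a fold of -1.23 (-1.30 to -1.16). The ratio of FANCD2 to FANCI counts was 0.736 in shHDAC6, 0.548 in ACY1215 and 0.585 in CAY10603, against 0.600 in shControl and 0.641 in vehicle. Within the core complex, FANCA, its scaffold, was the only member past 2-fold, with 23.7 CPM in shHDAC6, 11.1 in ACY1215 and 21.0 in CAY10603, against 15.8 in shControl and 23.4 in vehicle, a fold of -1.07 (-1.22 to -0.92). FANCM, a translocase that anchors the core at stalled forks, lay just outside at -0.96, and UBE2T and FANCB followed at -0.87 and -0.86. FANCL, the ubiquitin ligase subunit, was at -0.60. FANCG, FANCC and FANCE, which build the rest of the complex, lay nearer 0 at -0.31, -0.21 and -0.08. The median of the 8 core and conjugation genes was -0.73.

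BRCA2, which prepares single-stranded DNA for strand exchange, had 48.7 CPM in shHDAC6, 17.7 in ACY1215 and 51.3 in CAY10603, against 34.3 in shControl and 47.2 in vehicle. Its ACY1215 fold was -1.41 (-1.53 to -1.30), or 2.66 times lower than vehicle. BRIP1, the helicase partner of BRCA1, had 42.5 CPM in shHDAC6, 20.4 in ACY1215 and 48.0 in CAY10603, against 29.2 in shControl and 51.1 in vehicle, a fold of -1.33 (-1.43 to -1.22). BRCA1 had 70.01 CPM in shHDAC6, 35.1 in ACY1215 and 73.0 in CAY10603, against 51.3 in shControl and 75.1 in vehicle, a fold of -1.10 (-1.18 to -1.01). In all 3, ACY1215 was the lowest library and shControl the second lowest. BARD1, the obligate partner of BRCA1, had 35.7 CPM in shHDAC6, 21.1 in ACY1215 and 31.5 in CAY10603, against 21.6 in shControl and 33.9 in vehicle, so ACY1215 and shControl nearly coincided and the ACY1215 fold over vehicle was -0.69 (-0.80 to -0.57). PALB2, which bridges BRCA1 and BRCA2, was the least different member of the group at -0.22. Partners thus differed unequally: the ratio of BRCA2 to PALB2 counts was 1.94 in shHDAC6, 0.790 in ACY1215 and 1.80 in CAY10603, against 1.43 in shControl and 1.81 in vehicle.

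Among the checkpoint genes, the adaptors of the ATR arm and CHEK1 were lower in ACY1215 than in vehicle, while ATR itself was at nearly the same level. CLSPN, claspin, the adaptor through which ATR reaches CHEK1, had 102 CPM in shHDAC6, 39.3 in ACY1215 and 105 in CAY10603, against 83.5 in shControl and 97.8 in vehicle. ACY1215 was the lowest library, at -1.31 relative to vehicle (-1.39 to -1.24), and it stayed more than 2-fold under each of the other 4 libraries. EXO1 was the other member of which this held, so that 2 of 40 members did, against 0.512% of all genes. CHEK1 was at -0.80 and TOPBP1, the activator of ATR, at -0.59, while CHEK2 was at -0.41 and ATM at -0.23. In the authors' FPKM, ATM, ATR and RAD50 were the 3 members whose ACY1215 fold over vehicle had the opposite sign, at 0.30, -0.082 and -0.061. ATR, the kinase of the arm, had 101 CPM in shHDAC6, 100.2 in ACY1215 and 101 in CAY10603, against 110.2 in shControl and 99.0 in vehicle, and its fold of 0.02 (-0.04 to 0.08) was 1 of the 2 highest of the members. The ratio of CHEK1 to CLSPN counts was 1.05 in shHDAC6, 1.68 in ACY1215 and 1.05 in CAY10603, against 1.14 in shControl and 1.17 in vehicle.

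None of the genes grouped under end sensing and resection, mismatch repair or end joining was 2-fold apart between ACY1215 and vehicle. EXO1, which also trims ends and acts on mismatches, was grouped with strand exchange and lay at -1.63. RAD50, the structural arm of the MRN complex, had 159 CPM in shHDAC6, 175 in ACY1215 and 176 in CAY10603, against 191 in shControl and 169.9 in vehicle, with shHDAC6 the lowest library and an ACY1215 fold of 0.05 (0.00 to 0.09), the highest of the members. Its partners NBN and MRE11A were at -0.18 and -0.52, and RBBP8 (CtIP), which starts end trimming, was at -0.69. Of the end joining factors, XRCC6 was at -0.32, XRCC5 at -0.15, PRKDC, the catalytic subunit of DNA-dependent protein kinase, at -0.12, and LIG4 at -0.03. PARP1, a sensor of DNA breaks, was at -0.13. The median of these 5 was -0.13. In mismatch repair, MSH6 was at -0.24 and PMS2 at -0.37.

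**Figure D2:**
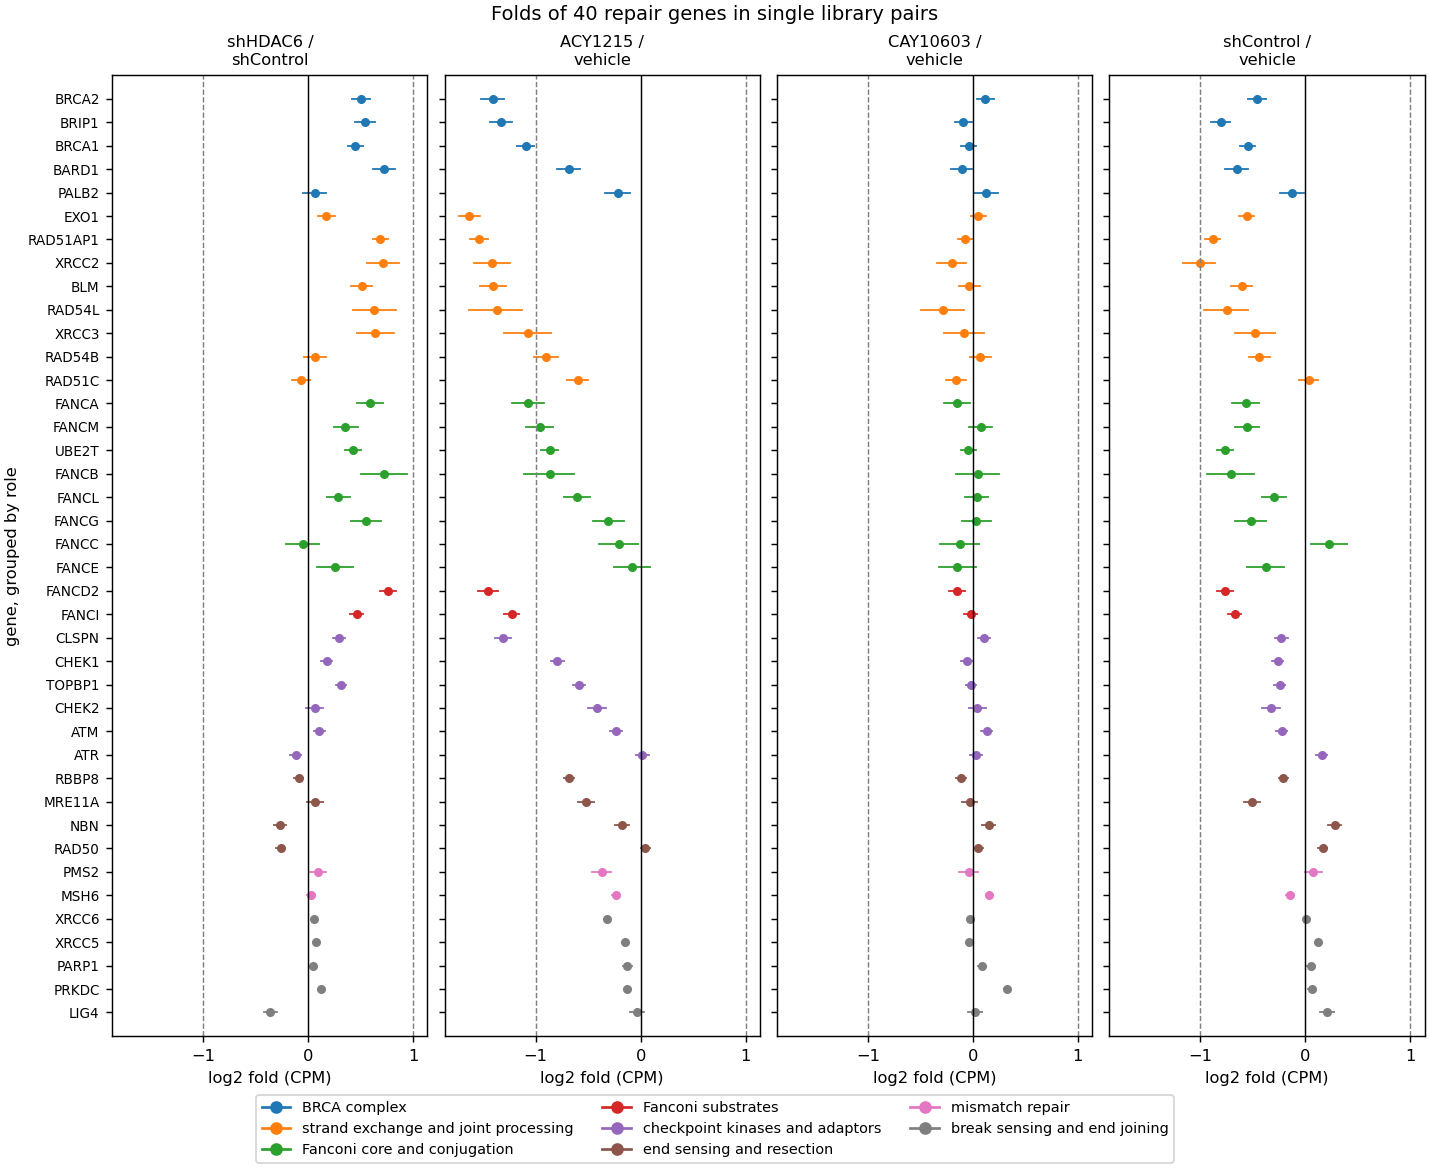
Log2 folds (points) with 95% counting intervals (bars) of the 40 genes above 5 CPM in 4 library pairs, grouped by role, with dashed lines at 2-fold. In the ACY1215 panel 13 genes lie at or beyond the left dashed line, whereas in the shHDAC6 panel 33 lie right of 0 and in the CAY10603 panel all lie within 2-fold.

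In shHDAC6 most of the repair transcripts were higher than in shControl, the recombination and Fanconi genes more so than the end joining genes. Of the 40 members, 33 were higher, with 50.7% of all genes higher, and the median log2 fold was 0.22, against 0.00 for all genes. No member was 2-fold apart, while 0.438% of all genes were 2-fold higher and 0.251% 2-fold lower. The counting interval lay above 0 for 28 members (35.1% of all genes) and below 0 for 5 (36%). Median folds were highest for the Fanconi substrates (0.61), strand exchange and joint processing (0.57) and the BRCA complex (0.50), against 0.06 for end joining and -0.18 for end sensing. FANCD2 had the highest fold, 0.76 (0.68 to 0.83), and BARD1 the next, 0.72 (0.62 to 0.83). LIG4, the ligase of end joining, had the lowest, with 63.1 CPM in shHDAC6, 68.7 in ACY1215 and 71.4 in CAY10603, against 81.0 in shControl and 70.4 in vehicle and a fold of -0.36 (-0.42 to -0.30). NBN, the signalling subunit of the MRN complex, had 82.2 CPM in shHDAC6, 71.9 in ACY1215 and 90.3 in CAY10603, against 98.9 in shControl and 81.4 in vehicle, a fold of -0.27 (-0.33 to -0.21). For both, shControl was the highest library.

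The direction in shHDAC6 depended on the library it was set against. Vehicle belongs to the drug experiment, so HDAC6 knockdown and experiment type cannot be told apart in that pair. With vehicle in place of shControl, 24 members were lower and 16 higher, the median was -0.074, and 48% of all genes were lower. No member was 2-fold higher or lower than in vehicle, against 0.289% and 0.903% of all genes. G2 and M phase genes behaved likewise, with a median of 0.49 against shControl and -0.11 against vehicle, and DNA replication genes had 0.44 against shControl and 0.13 against vehicle. The part of cell cycle distribution in this difference was not tested either.

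The comparison of the controls with each other shows the size of difference present without any HDAC6 intervention. Between shControl and vehicle, 29 of 40 members were lower in shControl and 11 higher, with 47.7% of all genes lower and 52.3% higher, and the median was -0.35, against 0.01 for all genes. XRCC2, at -1.01 (-1.16 to -0.86), was the 1 member past 2-fold, where 0.903% of all genes were 2-fold lower. RAD51AP1 came next at -0.88 (-0.96 to -0.81). On the higher side were NBN at 0.28 (0.22 to 0.34) and FANCC, a core complex subunit, at 0.22 (0.05 to 0.39). FANCC had 11.9 CPM in shHDAC6, 9.18 in ACY1215 and 9.71 in CAY10603, against 12.4 in shControl and 10.6 in vehicle, with shControl the highest library. For the 13 members that were 2-fold lower in ACY1215 than in vehicle, a pair that shares the vehicle library with this one, the shControl folds over vehicle lay between -1.01 and -0.23.

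Repair transcripts in CAY10603 were close to those in vehicle. Of the 40 members, 22 were lower and 18 higher, with 48.5% of all genes lower, and the median was -0.026, against 0.01 for all genes. None was 2-fold apart, where 0.242% of all genes were 2-fold lower and 0.0279% 2-fold higher. The counting interval spanned 0 for 20 members (49.4% of all genes), and in the authors' FPKM 8 of the 40 folds had the opposite sign. RAD54L had the lowest fold, -0.29 (-0.49 to -0.09), followed by XRCC2 at -0.20 (-0.34 to -0.07). PRKDC had the highest, with 371 CPM in shHDAC6, 299.6 in ACY1215 and 409.7 in CAY10603, against 341 in shControl and 327 in vehicle and a fold of 0.33 (0.30 to 0.36). MSH6, which recognises mismatched bases, came next, with 231 CPM in shHDAC6, 213 in ACY1215 and 280.0 in CAY10603, against 227 in shControl and 251 in vehicle and a fold of 0.16 (0.12 to 0.19). Among the 13 members that were 2-fold lower in ACY1215, CAY10603 folds over vehicle lay between -0.29 and 0.12. Against shControl, a library of the hairpin experiment, 31 members were higher in CAY10603 and the median was 0.36, with 51.4% of all genes lower. No member was 2-fold higher or lower than in shControl, against 0.857% and 0.261% of all genes.

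The inhibitors therefore differed from each other in these genes more than CAY10603 differed from vehicle. CAY10603 over ACY1215 had a median fold of 0.57 with 39 of 40 members higher, where 50% of all genes were higher, and 12 members were at least 2-fold higher, against 2.24% of all genes, and 0 at least 2-fold lower, against 1.03%. EXO1 at 1.68 (1.59 to 1.78) and BRCA2 at 1.53 (1.42 to 1.64) had the highest folds. FANCM was the 1 gene past 2-fold here that was not past it against vehicle, with 25.7 CPM in shHDAC6, 15.2 in ACY1215 and 31.1 in CAY10603, against 20.1 in shControl and 29.5 in vehicle and a fold of 1.04 (0.91 to 1.16). FANCE, an adaptor between the core and FANCD2, was the 1 gene lower in CAY10603, at -0.07 (-0.24 to 0.10), with 10.9 CPM in shHDAC6, 11.2 in ACY1215 and 10.7 in CAY10603, against 9.10 in shControl and 11.9 in vehicle. Its interval spanned 0, and RAD50 was next at 0.01 (-0.04 to 0.05). HDAC6 transcript also differed between the inhibitors, with a CAY10603 fold over ACY1215 of 0.54. The sources used here give no doses or times, which may differ, so the values stand side by side and are no comparison of the compounds at a matched exposure.

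**Figure D3:**
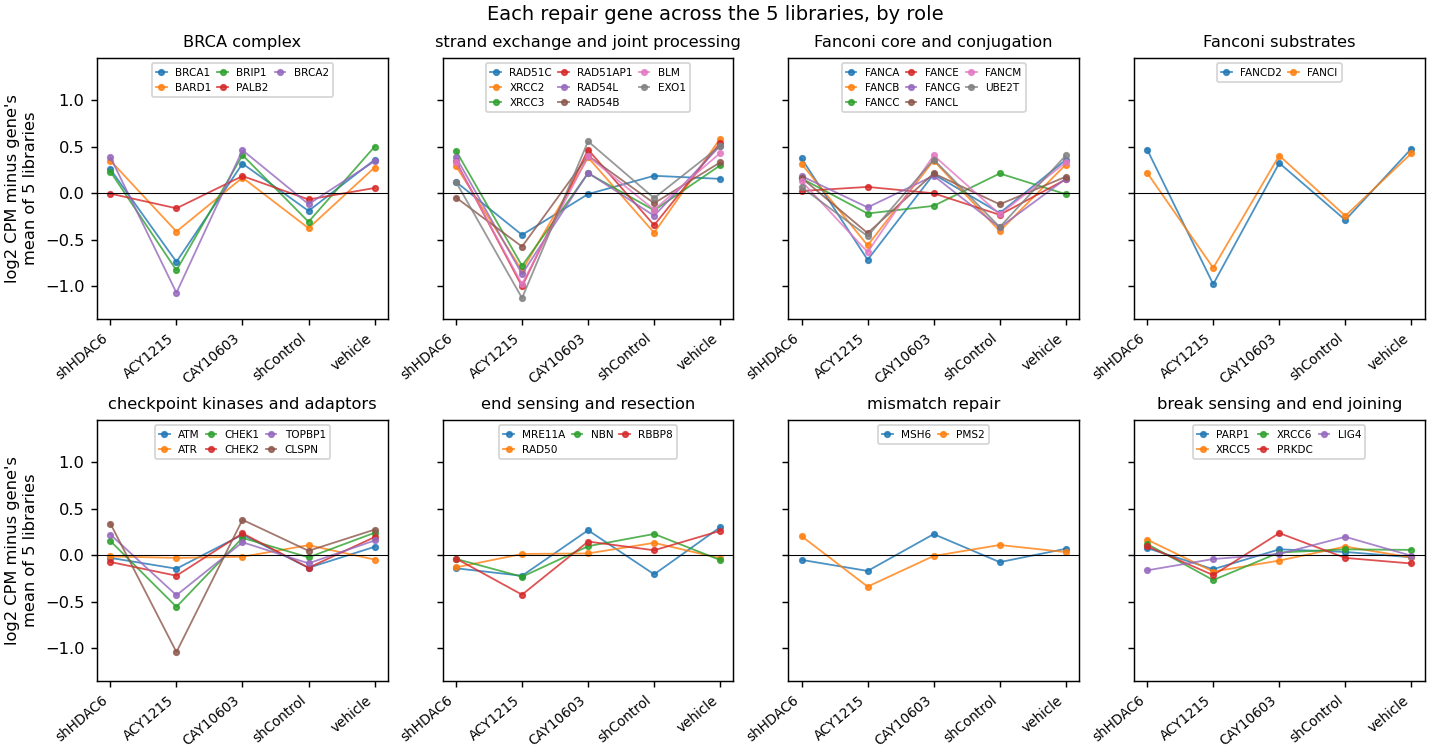
Log2 CPM of each of the 40 genes minus its own mean over the 5 libraries, in 1 panel per role, with libraries along the horizontal axis. Most lines of the BRCA, strand exchange and Fanconi panels reach their lowest point at ACY1215 and dip again at shControl, while the end joining lines stay close to 0.

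Across the 5 libraries, ACY1215 was the lowest for 35 of 40 members, against 29.9% of all genes. The exceptions were RAD50 and LIG4, lowest in shHDAC6 (23.4% of all genes), FANCE and FANCG, lowest in shControl (15.5%), and ATR, lowest in vehicle (17%). shControl was the second lowest in 26 of the 35, against 35.9% of the 3213 genes with ACY1215 lowest. Of the 40 members, 33 were higher in shHDAC6 than in shControl and lower in ACY1215 than in vehicle, against 31% of all genes. RAD51C, FANCC and RBBP8, 3 members, were lower in all 3 interventions than in the matched control, against 10.8% of all genes, and 0 were higher in all 3, against 11.6%. In the shHDAC6 pair the intervals of RAD51C (-0.15 to 0.02) and FANCC (-0.21 to 0.10) spanned 0, as did that of FANCC in the CAY10603 pair, and the FANCC fold of shHDAC6 over shControl was 0.20 in the authors' FPKM. The shHDAC6 and ACY1215 pairs share no library, and over the 40 members their folds had a Pearson correlation of -0.73 and a Spearman correlation of -0.73. Over all 10738 genes the values were -0.31 and -0.32. The genes share the same 4 libraries and are not independent replicates, so this describes these libraries.

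**Figure D4:**
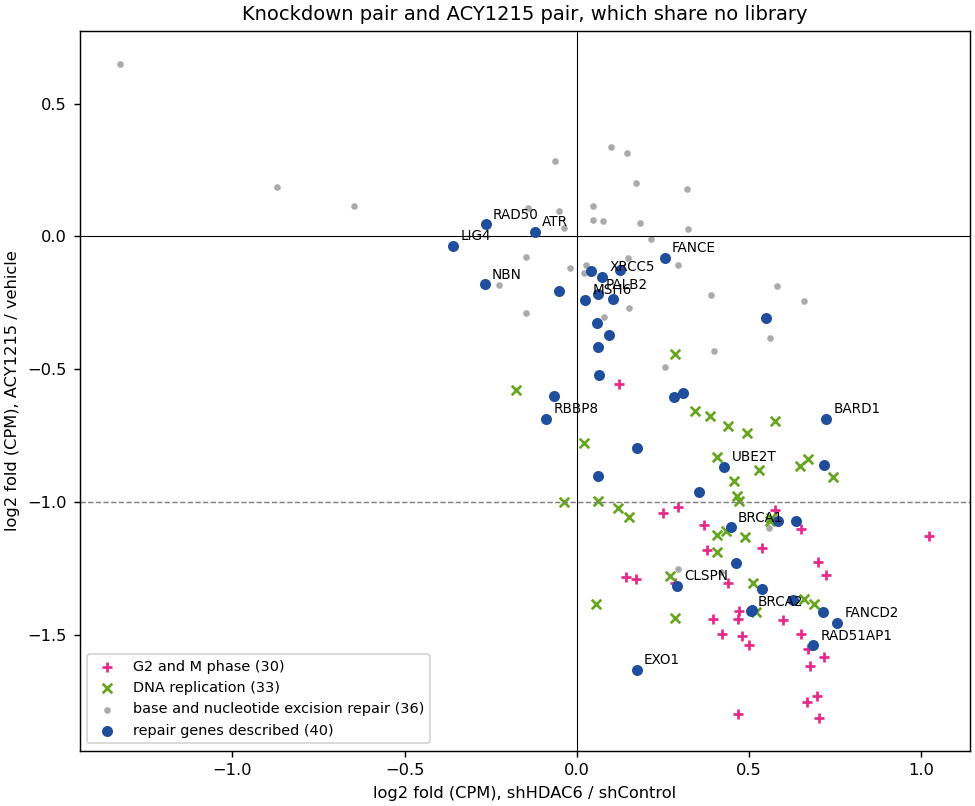
Log2 fold of ACY1215 over vehicle (vertical) against shHDAC6 over shControl (horizontal) for the 40 genes, with G2 and M phase, DNA replication and excision repair genes as other symbols. Repair genes run from RAD50 and LIG4 near the upper left to FANCD2 and RAD51AP1 at the lower right, where the G2 and M phase genes also lie.

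Other genes of the same pathways, 70 more listed for double-strand break repair and the Fanconi pathway, had a median nearer 0 than the 41 members. Of the 66 above 5 CPM, 51 (77.3%) were lower in ACY1215 than in vehicle, against 50% of all genes, with a median of -0.33. At least 2-fold lower were 7 (10.6%), against 3.04% of all genes. EME1, a subunit of a nuclease that cuts joined molecules, was lowest at -1.77, then CDC25C, a mitotic phosphatase restrained by the checkpoint, at -1.68, and RECQL4, a helicase, at -1.53. BRE, a subunit of the BRCA1-A complex, had the highest fold, 0.59. Base and nucleotide excision repair genes had a median of -0.08, with 20 of 36 (55.6%) lower, near the 50% of all genes. At least 2-fold lower were 3 of 36 (8.33%, against 3.04% of all genes): NEIL3 (-1.26), LIG1 (-1.25) and FEN1 (-1.10). NEIL3 is a glycosylase that acts on crosslinked DNA, and LIG1 and FEN1 also finish lagging strands in replication. ERCC5, an endonuclease of nucleotide excision repair, was higher in ACY1215 by 0.65 and lower in shHDAC6, at -1.33 relative to shControl.

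The promoter table held 53 entries for 36 of the members, 11 of which had several starts. RAD54B, FANCI, NBN, XRCC5 and PRKDC are not analysed here. In the 250 bases before the start, a CCAAT box (CCAAT, either strand) was present in 26 of 53 entries (49.1%), against 32.0% of all 35116 entries and 33.8% of 12725 entries of genes tested. The E2F strings given above were present in 4 entries (7.55%), against 2.79% of all entries and 4.46% of those of tested genes. The cell cycle homology region, searched as TTTGAA or TTCGAA on either strand, was present in 4 entries (7.55%), against 14.3% and 10.4%. No string searched contains another. Over the whole 300-base entry, which adds 50 bases after the start, E2F strings were present in 11 of 53 entries (20.8%) of 10 genes, against 3.31% of all entries and 5.28% of those of tested genes. Of the 12 E2F matches, in 10 genes, 9 began within 50 bases of the start, in 9 genes. Entries of the same gene can overlap, as those of PMS2 appear to, so 1 site may be counted in several entries. By the ACY1215 fold, E2F strings in the 250 bases before the start were found for 1 of the 12 members that were 2-fold lower and have an entry (FANCA) and for 2 of the 23 other members above the floor (FANCC and PMS2). In the whole entry they were found for 5 of these 12 (XRCC2, EXO1, FANCA, FANCD2 and CLSPN) and for 5 of these 23 (FANCC, TOPBP1, MSH6, PMS2 and XRCC6). Such a match is a stretch of letters and does not show binding.

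**Figure D5:**
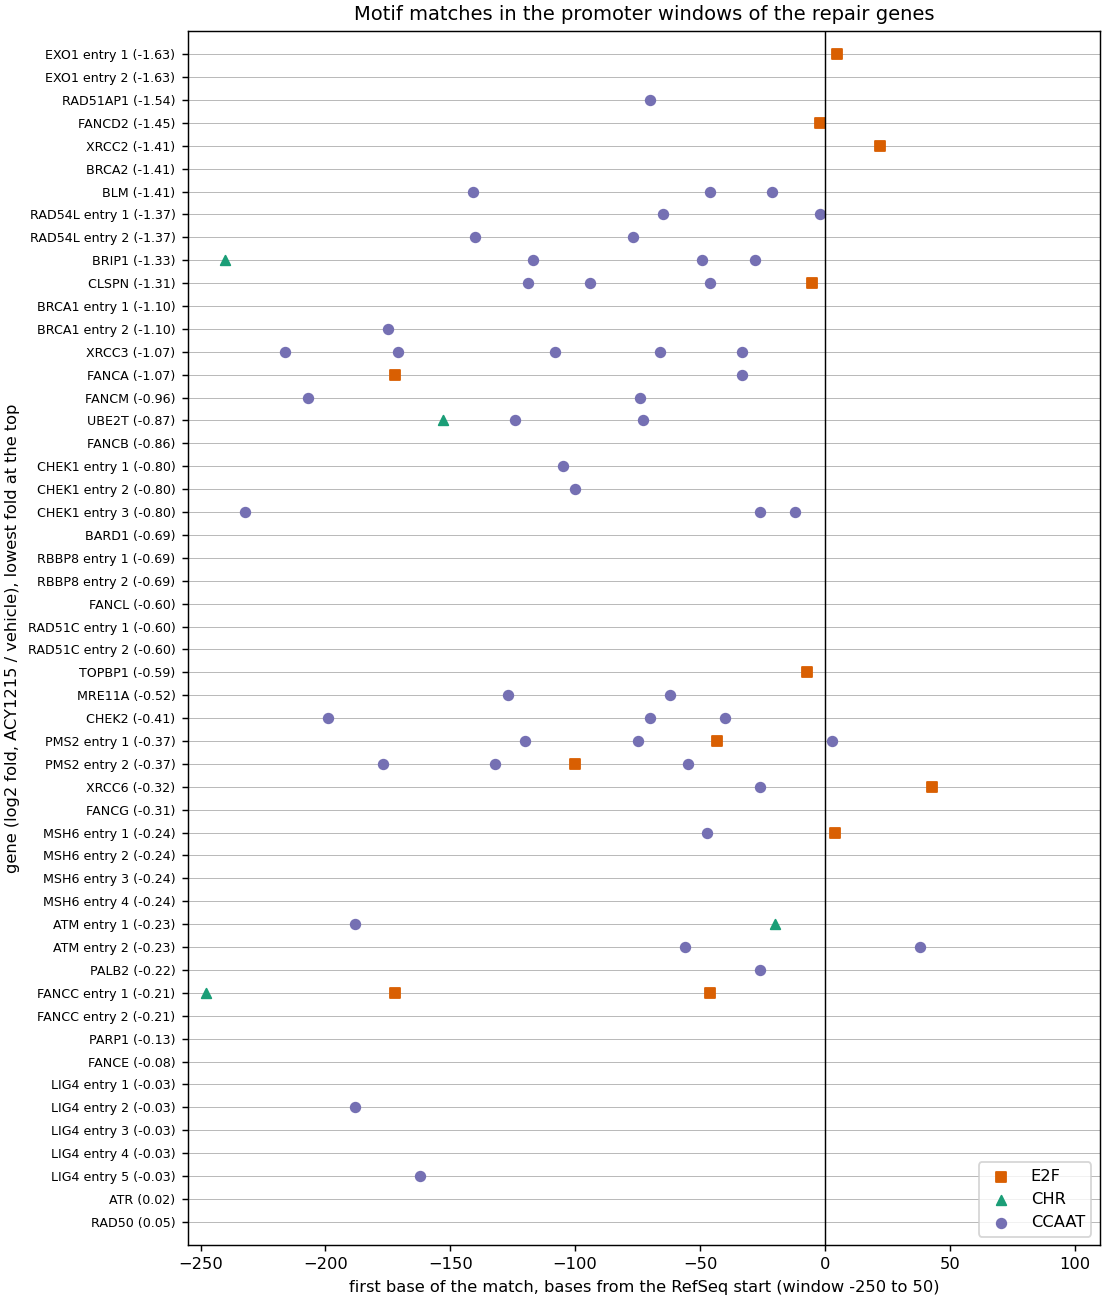
Position of each motif match relative to the RefSeq start (horizontal, bases, first base of the match) in the promoter entries of the members, ordered by ACY1215 fold over vehicle with the lowest at the top. E2F matches lie mostly near the start in entries with low and with moderate folds, and CCAAT boxes lie mostly before it.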

How the data were processed

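RNA-seq libraries of TOV21G cells, 1 per treatment, were made from total RNA with a stranded kit, per the labels' protocols. Per the file headers, the deposited values are counts per gene and FPKM, and the counts, whole numbers, were taken as the authors' expected counts. RSEM 1.2.3, edgeR and hg19 are named in the submitters' processing notes, with no role. Aligner, annotation and strandedness of counting: not given in the sources used here. A DMSO column was taken as vehicle, since DMSO is a common solvent and 1 vehicle sample is labelled. Of the rows, 28442 name genes, 2 blank rows were left out and 27 symbols had turned into dates. Columns of unknown samples numbered 0. Counts were used as deposited.

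The labels' repressed HDAC6 group (shHDAC6, ACY1215 and CAY10603, replicates 1 to 3) was tested against the control group (shControl and vehicle, replicates 1 and 2, numbers given in accession order that pair nothing) with edgeR 4.0.16 in R 4.3.3. The fit used TMM, a robust quasi-likelihood F test, experiment type as a covariate and a filter of 1 CPM in 2 or more libraries, with Benjamini-Hochberg adjustment at 0.05 and 2 residual degrees of freedom. The group's 3 libraries had unlike treatments, and no label speaks of repeated cultures, so p-values measure only the spread between these libraries. DESeq2 1.42.0 and limma 3.58.1 were alternatives. Single pairs carry no test: log2 folds of CPM, scaled by TMM and with 2 as prior count, are given for genes averaging at least 5 CPM, with exact binomial intervals. FPKM folds were taken of log2(FPKM + 0.1), which understates changes of low genes. The fit and the intervals were also run on simulated data. In the simulation of the fit, all treated libraries shared the same planted fold, unlike the libraries here. It therefore does not show what the fit could find in these data. At 43498805 to 57442767 counts per library, counting error was small for most members, and low genes such as RAD54L had the widest intervals.

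The members and the gene lists were chosen with earlier results of these data known. Full values were given for members at least 2-fold apart in any pair and for the 2 highest and 2 lowest folds of each pair. Promoter sequences are RefSeq's on GRCh38.p14, another build than the files' hg19, so genes were matched by Entrez gene identifier and no coordinates were mixed. Some genes are not reported here.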

Additional observations from a re-analysis of the deposited data

Results flagged for a closer look

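The median log2 fold of the 40 members was 0.22 for shHDAC6 over shControl, -0.64 for ACY1215 over vehicle and -0.026 for CAY10603 over vehicle. The hairpin and ACY1215 medians thus lay on opposite sides of 0. The CAY10603 median was close to 0, with 18 members higher, 22 lower and 20 counting intervals spanning 0. With 1 library a side this difference between the experiments was not tested. The median of shHDAC6 was -0.074 when set against vehicle, a library of the drug experiment. Both drug pairs share the vehicle library.

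Individually, 19 of the 40 members were higher in shHDAC6 than in shControl and lower in both inhibitors than in vehicle, against 21.9% of all genes, and this too was not tested. The shHDAC6 and ACY1215 conditions alone were met by 33 of the 40, against 31% of all genes. In CAY10603, 22 of the 40 were lower than in vehicle, against 48.5% of all genes. Groups had at most 3 libraries, so single libraries were not screened as outliers.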

How the results depend on the processing

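No paired analysis was possible because the labels give no replicate numbers. Experiment type, which sets the hairpin against its own control and the drugs against theirs, was a covariate of the fit, and without it 0 genes were called. In the pooled comparison, 0 genes were called under the other normalization, filters, design and tools, and 0 to 4 when 1 library was left out: EIF3CL, LOC100505876, BC017214 and HIST2H3C without ACY1215, and GTF2IP1, BC007880 and CR749695 (3 genes) without vehicle. The members called were 0 throughout. The pooled median of the members lay between -0.34 and 0.22 when 1 library was left out. Leaving out 1 library moved the pooled log2 fold of FANCG between -0.13 and 0.55, of RBBP8 between -0.39 and -0.088 and of RAD51C between -0.37 and -0.065, with the sign of FANCG reversed without shHDAC6 and without shControl. With the other control library, which differs in experiment type, the member median was -0.074 for shHDAC6 set against vehicle. It was -0.40 for ACY1215 set against shControl with 2 members at least 2-fold lower, and 0.36 for CAY10603 set against shControl. In the authors' FPKM the ACY1215 median was -0.75. Without a floor on CPM, 2 members were 2-fold lower in shControl than in vehicle, the added member being FANCF at 2 against 5 counts. E2F strings were found in 11 entries over the whole 300 bases. The other 85 values of the main comparisons stayed within their bounds. Of further values such as single-gene folds, 469 stayed within theirs and 102 moved, apart from the 2 reversed FANCG values above. In the authors' FPKM, for example, shHDAC6 folds over shControl were 0.30 for BRCA2 and 0.69 for BRIP1, against 0.50 and 0.54 in CPM. The causes were not tested. No pair has a replicate check, so depth narrows counting error only.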
